A study of Mus musculus with 4 samples.

Results

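The genes described here are 10 C-type lectin receptor genes of mouse macrophages, Klra2, Clec7a, Clec4n, Clec4d, Clec4e, Clec5a, Clec4a1, Clec4a2, Clec4a3 and Clec12a, out of 48795 genes in the deposited count table. They were taken by symbol, through the Ensembl identifier of each row, and all 10 were found and passed the filter on low counts. The choice was made with the siRNA effect on these genes already known, so their changes are given as a description. The cells were bone marrow-derived macrophages of C57BL/6 mice, grown for 5 days in M-CSF, the growth factor that drives macrophage differentiation, at 50 ng/ml with 10% serum. The 2 IRF2_si libraries came from cells given 50 nM of siRNAs against IRF2, a transcription factor that binds interferon-responsive elements, and the 2 con_si libraries from cells given 50 nM of a control siRNA. RNA was taken 48 h later in both groups. Nothing in the labels says whether libraries of a group are separate cultures or mice, so each p-value reflects variation among these 4 libraries, possibly technical.

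C-type lectin receptors are surface proteins with a carbohydrate-recognition fold, and on macrophages they sense fungi, mycobacteria and damaged cells. The activating ones signal through an immunoreceptor tyrosine-based activation motif (ITAM), either in their own tail, as in Dectin-1 (Clec7a), or in the adaptors FcRgamma (Fcer1g) or DAP12 (Tyrobp), to the kinase Syk and on to CARD9 and NF-kB. The inhibitory ones carry an inhibitory motif (ITIM) that recruits the phosphatases SHP-1 (Ptpn6) and SHP-2 (Ptpn11). Klra2 encodes Ly49B, an ITIM-bearing member of a receptor family best known from natural killer cells, which is itself found on myeloid cells.

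Gene counts totalled 26378584 and 26895100 reads in the IRF2_si libraries and 29862296 and 32273565 reads in the con_si libraries. Irf2 itself had 56.0 and 56.1 CPM, read counts scaled to library size by TMM, with IRF2 siRNA, against 163.9 and 151.6 CPM with control siRNA, a change of −1.49 ± 0.11 on the log2 scale (standard error) with an adjusted p = 0.00477 in edgeR's quasi-likelihood test. Macrophage markers were present throughout, with 10 genes summing to 26340 and 25060 CPM in IRF2_si and to 27280 and 24640 CPM in con_si libraries. Markers of natural killer cells, the other main source of Ly49 receptors, summed to 0.378 and 0.184 CPM with IRF2 siRNA and 0.379 and 0.369 CPM with control siRNA over 9 genes, with Gzma and Eomes at 0 in all 4 libraries. Within the macrophage list, Cd14 and C5ar1 were below both con_si libraries in both IRF2_si libraries, with log2 fold changes of −0.51 and −0.61, and did not pass (edgeR adjusted p = 0.131 and 0.104). Csf1r was above in both, with a log2 fold change of 0.11, and the other 7 markers overlapped. Of all genes tested, 19.4% were apart below and 19.0% above. Summed markers of 3 other cell types were apart between groups. T cell markers were 7 genes, with Cd4 the 1 member tested. They summed to 21.0 and 22.3 CPM in IRF2_si and to 31.5 and 25.7 CPM in con_si libraries. Cd4 alone made up nearly all of this, at 20.9 and 22.2 CPM in IRF2_si and 31.2 and 25.5 CPM in con_si libraries. The 8 dendritic cell genes summed to 3.85 and 3.49 CPM in IRF2_si and to 5.37 and 4.27 CPM in con_si libraries. Of those tested, Batf3 and Xcr1 lay below and Zbtb46 above in both IRF2_si libraries, and Ccl22 overlapped. Neutrophil markers were 10 genes, with Retnlg at 0 in all libraries. Their sum was higher with IRF2 siRNA, at 11.7 and 14.4 CPM in IRF2_si and 10.4 and 11.25 CPM in con_si libraries. Of those tested, S100a9 lay above in both IRF2_si libraries, and S100a8, Ngp and Ltf overlapped. The sums of B cell and of mast cell and basophil markers overlapped between groups. Their part in the results was not tested. In bulk RNA, fewer cells of a type and less RNA per cell cannot be told apart.

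Among the 10 receptors, Klra2 and Clec7a were higher with IRF2 siRNA, by 4.79-fold and 1.80-fold, and the other 8 had log2 fold changes between −0.19 and 0.36. In the fit across all genes these 2 of the 10 passed an adjusted p under 0.05, where 1.79% of the 13495 genes tested did, and both rose, as did 0.511% of all genes, while 1.27% fell. Both IRF2_si libraries lay above both con_si libraries for 4 of the 10, Klra2, Clec7a, Clec4e and Clec5a, as they did for 19.0% of genes tested, and for none of the 10 did both lie below, as for 19.4%. Taking both directions, the groups were apart for 38.4% of genes tested. These shares are given for scale, since the genes were chosen on this contrast. The median log2 fold change of the 10 was 0.17, and that of all genes tested −0.0015.

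**Figure D1:**
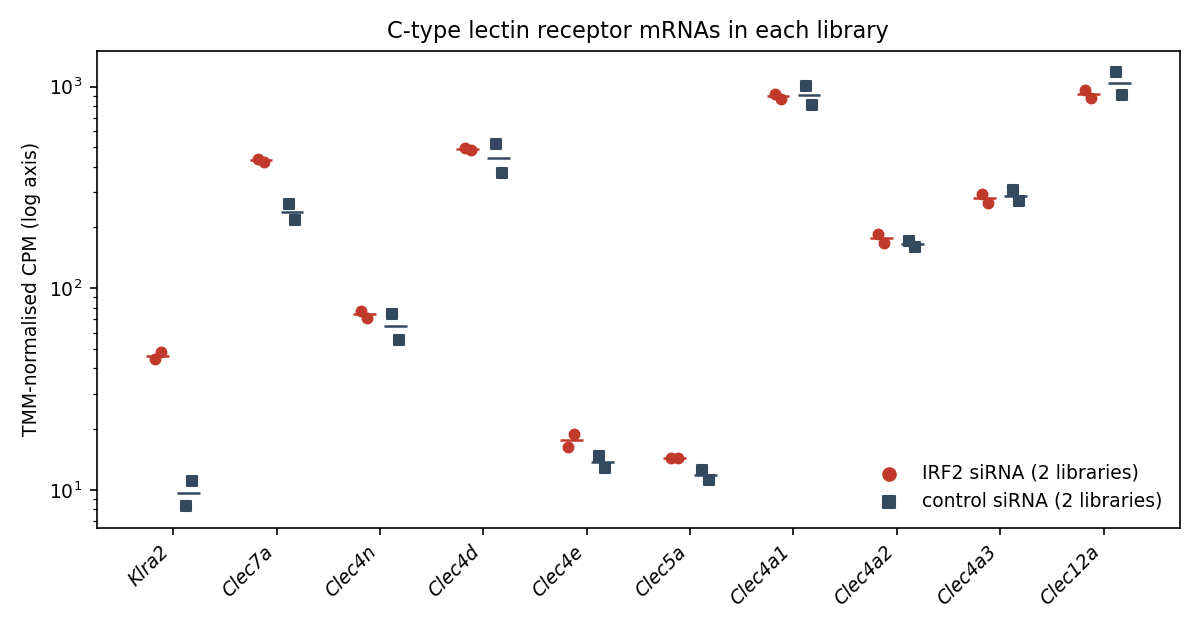
TMM-normalised CPM of each receptor on a log axis, with a point for each library and a bar for the group mean, IRF2 siRNA on the left and control siRNA on the right of each pair. Klra2 and Clec7a are the pair with a wide gap between groups, while most other genes overlap.

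Klra2 lies on the minus strand of chromosome 6 at positions 131219223 to 131247362 of mm10. It had 1176 and 1316 reads in IRF2_si libraries, against 241 and 360 reads in con_si libraries, which are 44.4 and 48.3 CPM against 8.30 and 11.1 CPM. Both knockdown libraries thus stood far above both controls, and the control libraries differed from each other by more, in proportion, than the knockdown libraries did. Group means were 46.3 ± 2.75 CPM with IRF2 siRNA and 9.68 ± 1.95 CPM with control siRNA (SD, n = 2 each). The log2 fold change, 2.26 ± 0.17 (standard error), was the 40th largest in size among 13495 genes and ran from 2.07 to 2.48 when any 1 library was left out.

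The remaining Ly49 genes were almost silent. Across the 13 other Klra genes and pseudogenes in the table, reads summed to 26 and 29 in IRF2_si and to 65 and 57 in con_si libraries, and 7 of them had no read in any library. Klra3 held most of these, with 20 and 23 reads in IRF2_si and 61 and 48 reads in con_si libraries, the opposite direction to Klra2. Its log2 fold change, −1.15 ± 0.32 (standard error), did not pass (edgeR adjusted p = 0.182). The coding sequence of Klra2 was closest to that of Klra7, with 76.7% identity over 795 aligned bases, and none of its 1898 distinct transcript stretches of 50 bases occurred in a transcript of another gene. The read length is not stated in the labels.

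Over the 4 libraries, the genes whose centred log2 CPM profile lay nearest to that of Klra2, among 8871 candidates, were Ifit1, Gbp5 and Gbp7, at distances of 0.29, 0.33 and 0.389 log2 units. Ifit1 encodes an RNA-binding antiviral protein and had 486.9 and 485.5 CPM with IRF2 siRNA, against 115 and 126.8 CPM with control siRNA. Gbp5 and Gbp7, guanylate-binding proteins, had log2 fold changes of 2.51 and 1.91. Their direction follows from choosing them by nearness to Klra2 over the same libraries.

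Clec7a, the Dectin-1 receptor for beta-glucans of fungal walls, lies on the minus strand of chromosome 6 at 129461591 to 129472779. Its level was 439 and 423 CPM in IRF2_si libraries, against 260.2 and 219 CPM in con_si libraries. The groups were well apart, and the knockdown libraries lay close together. Means were 431 ± 11.5 CPM with IRF2 siRNA and 239 ± 29.4 CPM with control siRNA (SD, n = 2 each), and the log2 fold change was 0.85 ± 0.13 (standard error). Its direction held in all 11 alternatives, from 0.73 to 0.98 with any 1 library left out, but it no longer passed without IRF2_si replicate 1, without IRF2_si replicate 2 or with no filter on low counts, where Klra2 was the 1 receptor that passed. Of all genes tested, 1.68%, 1.67% and 0.311% passed in those 3 fits in that order. GENCODE M21 lists Clec7a as a polymorphic pseudogene, whereas RefSeq lists it as protein-coding.

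The promoters of these 2 genes are shown because both rose when a factor that binds interferon elements was reduced. Each is the RefSeq window of GRCm38.p6, on the gene's own strand, from 250 bases before the transcription start to 50 bases from it on, with matches to the motifs searched in capitals.
Klra2, chr6:131247313-131247612, minus strand: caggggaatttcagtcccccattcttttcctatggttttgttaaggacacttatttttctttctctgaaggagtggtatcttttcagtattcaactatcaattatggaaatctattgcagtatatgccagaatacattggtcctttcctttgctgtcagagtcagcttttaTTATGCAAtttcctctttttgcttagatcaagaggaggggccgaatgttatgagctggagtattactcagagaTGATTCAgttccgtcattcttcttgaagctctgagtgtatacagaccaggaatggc
Clec7a, chr6:129472730-129473029, minus strand: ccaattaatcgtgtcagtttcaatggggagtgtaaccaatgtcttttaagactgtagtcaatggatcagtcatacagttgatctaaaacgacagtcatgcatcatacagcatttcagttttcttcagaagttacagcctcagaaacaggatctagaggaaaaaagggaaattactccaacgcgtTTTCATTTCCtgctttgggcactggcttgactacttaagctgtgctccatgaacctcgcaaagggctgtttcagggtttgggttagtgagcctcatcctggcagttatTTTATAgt

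Motifs were searched on both strands in the 11 windows of the 9 receptors that RefSeq's table covers, Clec4n having none there and Clec7a and Clec4a3 having a pair each. The printed Clec7a window holds the letters of an ETS-IRF composite element (GGAA, any 2 bases, GAAA), as TTTCATTTCC on the printed strand with its first base 66 bases before the start, and a TATAAA match in reverse beyond the start. The other Clec7a window, at 129472736 to 129473035, holds the same composite letters 60 bases before its own start and not the TATAAA match. The Klra2 window holds neither that element nor the core of the interferon-stimulated response element (GAAA, any 2 bases, GAAA). Its 2 matches are TTATGCAA, the reverse of the C/EBP letters TTGCNNAA, and TGATTCA, a match to the AP-1 letters TGANTCA that ends on the start base. Among the others, Clec4a1 has the ETS-IRF letters and Clec4d the response element core. The composite was found in 3 of the 11 windows, which belong to 2 receptors, and in 2.72% of all 32851 promoter windows, the response element core in 1 of the 11 and in 3.44%, AP-1 in 3 and 7.81%, and C/EBP in 3 and 10.8%. The PU.1 letters GAGGAAGT were in none of the 11 and in 3.20% of all windows, and TATAAA in 4 of the 11 and in 13.6%. No match overlapped another, except that the palindromic C/EBP match of Clec12a counts on both strands. RefSeq extends Klra2 to 131247716, past the start used here, and bases beyond these windows were not searched.

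The remaining activating receptors were Clec4n, Clec4d, Clec4e and Clec5a, and each had a log2 fold change above 0 without passing. Clec4e, the Mincle receptor for mycobacterial cord factor, had 16.3 and 18.9 CPM with IRF2 siRNA, against 14.7 and 12.8 CPM with control siRNA. The log2 difference was 0.36 ± 0.15 (standard error), with a 95% interval of −0.0024 to 0.71, and the groups did not overlap. Clec5a, a DAP12-coupled receptor that binds dengue virus, had 14.3 and 14.4 CPM with IRF2 siRNA, against 12.5 and 11.1 CPM with control siRNA. Here too the groups were apart, by a narrow margin, with a log2 fold change of 0.28 ± 0.14 (standard error).

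Clec4n, or Dectin-2, recognises fungal mannans through FcRgamma, and its partner Clec4d, or MCL, pairs with Mincle. Clec4n had 77.4 and 71.0 CPM in IRF2_si libraries, against 74.3 and 55.4 CPM in con_si libraries, and Clec4d had 498 and 486 CPM, against 518 and 371 CPM. In both genes the IRF2_si values overlapped the control range, and con_si replicate 1 was well above con_si replicate 2. Log2 fold changes were 0.20 ± 0.16 for Clec4n and 0.15 ± 0.17 for Clec4d (standard errors). Without con_si replicate 1, Clec4n, Clec4d and Clec4e also passed, and the receptors that passed numbered 5, all higher, in a fit that called 10.2% of all genes tested. With con_si replicate 2 left out instead, the log2 fold change was −0.0012 for Clec4n and −0.07 for Clec4d.

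The inhibitory receptors other than Klra2 were not distinguishable between groups. Clec4a2, the ITIM-bearing receptor Dcir, had 186 and 168 CPM with IRF2 siRNA, against 172 and 159.9 CPM with control siRNA, and a log2 fold change of 0.09 with a 95% interval of −0.18 to 0.37. Clec12a, an ITIM receptor that binds uric acid crystals from dead cells, had 960.4 and 873 CPM in IRF2_si libraries, against 1175 and 911 CPM in con_si libraries. Its log2 fold change of −0.19 had an interval of −0.55 to 0.18, and it passed as lower without con_si replicate 2, a fit in which 3 receptors and 12.8% of all genes tested passed, while without con_si replicate 1 its log2 fold change was 0.01. Of the stretches of 50 bases in Clec4a2 transcripts, 6.83% occur in other genes, most often Clec4a4, so a part of its reads may have gone uncounted.

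Clec4a1 and Clec4a3 are relatives of Dcir in the same gene cluster. Clec4a1 had 921 and 864 CPM with IRF2 siRNA, inside the range of 1002 and 810.0 CPM with control siRNA. Clec4a3 had 294 and 265 CPM with IRF2 siRNA, against 306 and 270.0 CPM with control siRNA, so the groups overlapped. Their log2 fold changes were −0.02 with a 95% interval of −0.36 to 0.31, and −0.04 with one of −0.33 to 0.25. Set side by side, the 5 activating receptors had a median log2 fold change of 0.28 and all lay above 0, the 3 inhibitory ones had values of 2.26, 0.09 and −0.19, and the 2 Dcir relatives had a median of −0.03. The 2 genes that rose were thus 1 inhibitory and 1 activating receptor.

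**Figure D2:**
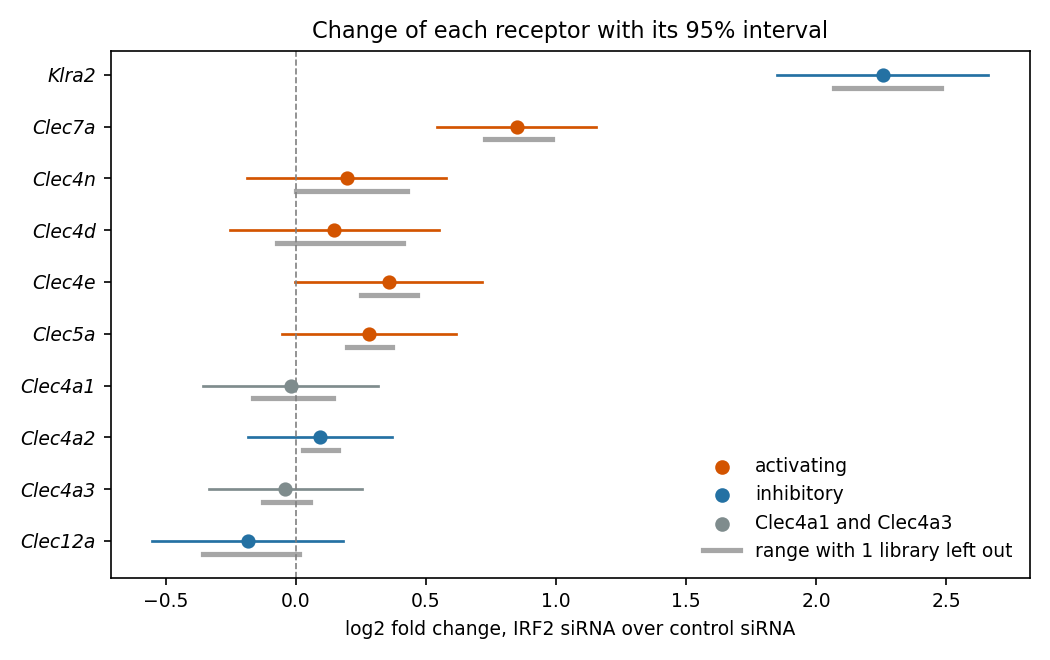
Log2 fold change of each receptor, IRF2 siRNA over control siRNA, as a point with its 95% interval, coloured by role, with a grey bar below it for the range over fits that leave out 1 library. Klra2 at 2.26 and Clec7a at 0.85 lie clear of 0, and grey bars of Clec4n, Clec4d, Clec4a1, Clec4a3 and Clec12a cross 0.

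Most of the receptors shared a difference between the 2 control libraries that the choice of genes did not use. In 9 of the 10, con_si replicate 1 was above con_si replicate 2, with a median log2 difference of 0.23, whereas 52.0% of all genes tested were, with a median of 0.02. The gene that did otherwise was Klra2, at −0.41. Between the IRF2_si libraries, replicate 1 was above replicate 2 in 7 of the 10, with a median of 0.07. Of all genes tested 50.4% were, with a median of 0.0023. Clec4d and Clec4n differed most between controls, by 0.48 and 0.42, which is more than their log2 fold changes between groups. The adaptors Fcer1g and Tyrobp, at 1550 and 1258 CPM and at 878 and 733 CPM in con_si replicates 1 and 2, were also higher in replicate 1. Most of the 42 adaptor, kinase and NF-kB genes described below lay the other way. Syk was among these, at 541 and 601 CPM in con_si replicates 1 and 2. The part of this library difference in the changes between groups was not tested beyond leaving out each library.

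Levels were compared between genes as CPM per kb of exon. With either siRNA Clec4a1 was the highest of the 10, at 573 ± 25.8 CPM per kb with IRF2 siRNA and 581 ± 87.0 with control siRNA, followed by Clec4d at 308 ± 5.57 with IRF2 siRNA and 278 ± 65.0 with control siRNA (SD, n = 2 each). At the other end were Clec5a, at 3.74 and 3.08 CPM per kb, and Clec4e, at 3.55 and 2.77 CPM per kb, with IRF2 siRNA and control siRNA in that order. The order of the 10 means was the same in both groups. Clec4a3 and Clec12a overlapped in con_si libraries, Clec12a and Clec7a in IRF2_si libraries, and Clec5a and Clec4e in both, so those neighbours in the order did not differ beyond their spread. Clec7a had 163.5 ± 4.37 CPM per kb with IRF2 siRNA, close to Clec12a at 165.8 ± 11.2, while with control siRNA it had 90.8 ± 11.1 against 189 ± 33.7 for Clec12a. Klra2 stood in the eighth place in both groups, at 24.4 ± 1.45 with IRF2 siRNA and 5.10 ± 1.03 with control siRNA. Taking the longest transcript as the length puts Clec12a above Clec4a3, at 322.6 and 221.4 CPM per kb with control siRNA. With IRF2 siRNA that length gives 189.4 CPM per kb for Clec7a and 283.5 for Clec12a. The closeness of Clec7a to Clec12a thus depends on the length taken.

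As shares of the summed level per kb of the 10 receptors, Clec7a made up 10.3% and 10.6% in IRF2_si libraries, against 6.05% and 6.34% in con_si libraries, and Klra2 1.45% and 1.68%, against 0.268% and 0.446%. The 5 activating receptors together held 33.5% and 34.4% with IRF2 siRNA, against 29.5% and 27.5% with control siRNA. Without Clec7a the other 4 held 23.1% and 23.8%, against 23.45% and 21.1% of the same sum, and overlapped between groups. The sums themselves were 1613 and 1517 CPM per kb in IRF2_si libraries and 1630 and 1308 in con_si libraries, and they overlapped.

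**Figure D3:**
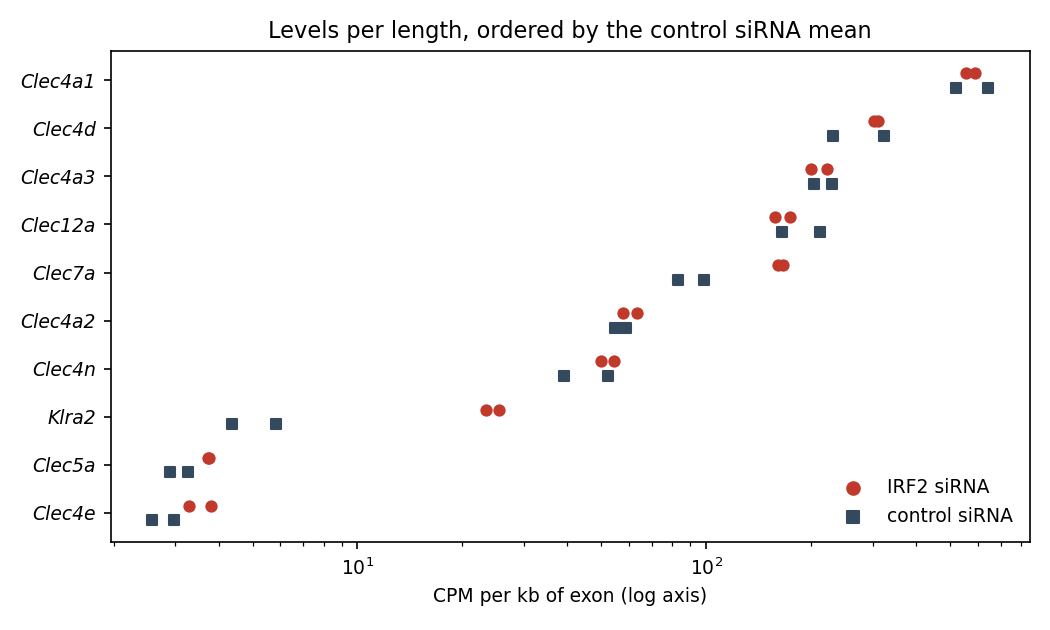
CPM per kb of exon on a log axis, with each library as a point, for the 10 receptors ordered by the control siRNA mean. Clec4a1 is at the top near 573 and 581, Clec5a and Clec4e are at the bottom under 4, and Klra2 is the gene whose groups lie farthest apart.

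All 10 genes lie on chromosome 6, and no exon of any of them overlaps an exon of another gene in GENCODE M21. Clec4a1, Clec4a3, Clec4a2, Clec4n, Clec4d and Clec4e form 1 stretch between 122921848 and 123289870, and the gap between Clec4d and Clec4e is 6524 bases. Clec12a and Clec7a are 96288 bases apart in a second stretch, and Klra2 and Clec5a stand away from both. Of 22 other genes tested within 250 kb of a receptor, none rose or fell in edgeR, where 1.79% of all genes tested did. The log2 fold changes of the 22 ran from −1.20 to 0.26, with a median of −0.09. At an unadjusted p under 0.05 edgeR had 3 of them lower and none higher, and DESeq2 and limma-voom called none. The share of all genes tested at that unadjusted threshold was not taken, here or for the lists below, so these counts have no background beside them. Clec1a, 9591 bases from Clec7a, had few reads, 25 and 27 in IRF2_si and 61 and 64 in con_si libraries. Its means were 0.967 CPM with IRF2 siRNA and 2.03 CPM with control siRNA. The log2 change was −1.07 (edgeR adjusted p = 0.121), the opposite direction to Clec7a. Clec1a was named with its values known. The tested genes nearest to Klra2 were Magohb and Ybx3, with log2 fold changes of 0.19 and −0.00029, named after their values were seen.

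Among 63 other C-type lectin and C-type lectin-like receptor genes, 21 were expressed enough to test. Of all genes tested 1.27% fell and 0.511% rose, and of these 21, 1 fell and none rose. This was Cd72, an ITIM-bearing receptor of B cells that macrophages also make, with 275 and 272 CPM in IRF2_si libraries, against 632 and 583 CPM in con_si libraries. The log2 change was −1.15 ± 0.11 (standard error; edgeR adjusted p = 0.0079), and 41.6% of its exon bases overlap Tesk1 on the opposite strand, so with the strand setting not stated its value is uncertain. The list's median was −0.20, with 15 of the 21 below 0, as were 6785 of all 13495 genes tested. Mrc1, the mannose receptor, named after its values were seen, had the highest level of them per kb, and its 1590 and 1825 CPM with IRF2 siRNA overlapped 1409 and 1807 CPM with control siRNA. The list had 4 called genes without con_si replicate 1 and 8 without con_si replicate 2, fits that called 10.2% and 12.8% of all genes tested.

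Of 42 genes for adaptors, kinases and the CARD9 and NF-kB arm, all tested, none rose or fell, against 1.79% of all genes tested. The median log2 fold change of the 42 was 0.03. At an unadjusted p under 0.05 edgeR had 1 gene lower and none higher, DESeq2 called 1 and limma-voom none. That gene was Fyn, a Src-family kinase, with 40.7 and 38.1 CPM in IRF2_si libraries, against 59.0 and 60.8 CPM in con_si libraries, and an edgeR adjusted p = 0.0618. Blnk, an adaptor that links Syk to phospholipase C, had the next smallest p, at −0.30 on the log2 scale (edgeR adjusted p = 0.456). The receptors' own partners were expressed in both groups, Fcer1g with 1653 and 1440 CPM and Syk with 547 and 558 CPM in IRF2_si libraries, against 1550 and 1258 CPM for Fcer1g and 541 and 601 CPM for Syk in con_si libraries. The count was 3 without con_si replicate 1 and 5 without con_si replicate 2, where 10.2% and 12.8% of all genes tested passed.

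The inhibitory arm holds the phosphatases, docking proteins and ligases that ITIM receptors recruit or that limit ITAM signalling. None of its 13 genes rose or fell, where 1.79% of all genes tested did, and its median log2 fold change was 0.02. EdgeR had 1 gene higher and 1 lower at an unadjusted p under 0.05, and neither DESeq2 nor limma-voom called any. These were Ubash3b, a phosphatase that acts on Syk, at 0.40, and Grb2, a signalling adaptor, at −0.34, with edgeR adjusted p-values of 0.265 and 0.316. Ptpn6 had a log2 fold change of −0.04. Without con_si replicate 2, 3 genes of this list passed, as did 12.8% of all genes tested.

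Genes known to be induced when Dectin-1, Dectin-2 or Mincle is engaged had 16 of 24 members expressed enough to test. Of these 1 fell and none rose, where 1.27% of all genes tested fell and 0.511% rose. Nr4a1, an immediate early nuclear receptor, had 15.7 and 15.1 CPM in IRF2_si libraries, against 33.9 and 30.5 CPM in con_si libraries, a log2 change of −1.06 (edgeR adjusted p = 0.0141). Il1a and Ptgs2, the cytokine and the cyclooxygenase, had the largest values above 0, at 1.67 and 1.31, and did not pass, with edgeR adjusted p-values of 0.0703 and 0.0827. Both had few reads. Il1a had 35 and 35 in IRF2_si and 12 and 13 in con_si libraries, and Ptgs2 80 and 126 against 43 and 52. Tnf had 0.43 and Il1b −0.35, and the list's median was −0.11. No ligand of these receptors was added according to the labels. The count was 2 without IRF2_si replicate 1, 4 without con_si replicate 1 and 6 without con_si replicate 2, beside 1.68%, 10.2% and 12.8% of all genes tested.

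**Figure D4:**
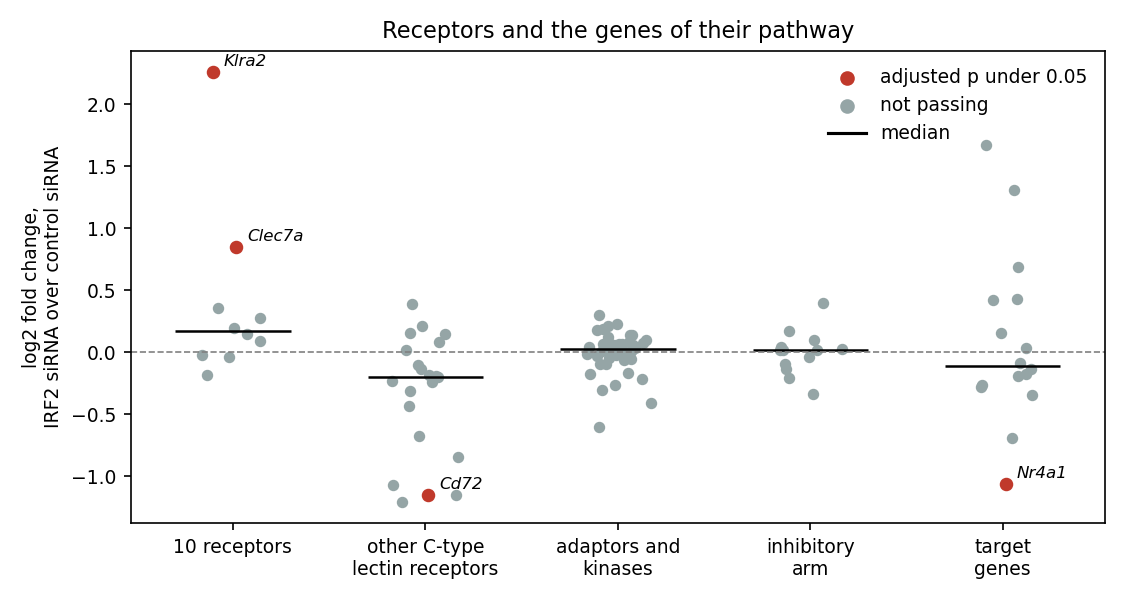
Log2 fold change, IRF2 siRNA over control siRNA, of each tested gene in 5 lists, with bars for the medians and red points for genes with an adjusted p under 0.05. The receptors have Klra2 and Clec7a above 0, Cd72 and Nr4a1 are below 0 in their lists, and the adaptors and kinases span log2 fold changes from −0.60 to 0.30.

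Of 12 transcription factors that act on such genes or on interferon elements, Irf2 fell and none of the other 11 passed, where 1.79% of all genes tested did. At an unadjusted p under 0.05 edgeR had 1 of the 11 above 0, and DESeq2 and limma-voom called none. That one was Irf4, at 0.47 on the log2 scale (edgeR adjusted p = 0.171). Spi1, which encodes PU.1, and Cebpb, a regulator of Mincle, had −0.19 and −0.06.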

How the data were processed

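RNA from 4 libraries, 2 with IRF2 siRNA and 2 with control siRNA, was analysed from the authors' deposited table of raw read counts per gene. Per the submitters' processing notes, bcl2fastq 2.18.0.12, STAR 2.5.2b, HTSeq 0.6.0 and DESeq2 were used with mm10; no source used here gives the annotation release or strand setting. The 5 summary rows were left out (no feature 5.07% to 6.85%, ambiguous 4.17% to 4.71%, not unique 12.5% to 15.0% of reads), so reads shared between near-identical genes are uncounted. The remaining 48795 genes were filtered with filterByExpr (minimum count 10, minimum total 15) to 13495, scaled by TMM and tested in R 4.3.3 with edgeR 4.0.16 (glmQLFit, legacy = FALSE, glmQLFTest, Benjamini-Hochberg over all genes tested, called under 0.05). The biological coefficient of variation was 12.6%. Standard errors were obtained from each gene's log2 fold change and its F statistic, and 95% intervals use the fit's degrees of freedom. Replicates differed by more than sampling noise, with chi-square values per degree of freedom of 10.1 for IRF2_si and 50.8 for con_si. Alternatives were other scalings and filters, DESeq2 1.42.0, limma-voom (limma 3.58.1), the replicate number as a block, and leaving out each library, where a lone library is assumed to vary like the other group. Positions and lengths are from GENCODE M21 and promoters from RefSeq, both on GRCm38, the assembly of mm10.

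Members and lists were chosen with earlier results of these data known. Genes named by rule were the 10 receptors, and up to 4 called genes per list by p, or 2 where none was called. Added to these were the 3 genes nearest in centred log2 (CPM + 0.5) profile to Klra2 and to Clec12a, from genes of mean log2 CPM of at least 3. Clec12a was the receptor with the lowest log2 fold change. The 3 nearest to it were Mpc1, Dbi and Ruvbl1, at distances of 0.0127 to 0.0182 log2 units. Other genes, among them Il1a, Ptgs2, Tnf, Il1b, Irf4, Spi1, Cebpb, Clec1a and Klra3, were named outside this rule with their values known.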

Additional observations from a re-analysis of the deposited data

How the results depend on the processing

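Klra2 passed as higher in the main edgeR fit and in all 11 alternatives. With no filter on low counts, 72 genes were called over all genes in place of 241, with 1 receptor and 0 target genes; far more genes of few reads entered that fit. DESeq2 called 405 genes, with 1 of the adaptors and kinases. The replicate number as a block gave 1521 genes, 11.3% of those tested, with 3 receptors, 7 other C-type lectin receptors, 4 adaptors and kinases, 2 of the inhibitory arm and 6 target genes; the numbers were not taken to pair libraries, since the labels name no pairing, although deviations from the group means correlated at 0.485 across genes. Leaving out 1 library gave 237 to 1770 genes over all, with 1 to 5 receptors, 1 to 8 other C-type lectin receptors, 0 to 5 adaptors and kinases, 0 to 3 of the inhibitory arm and 1 to 6 target genes; the high counts came without a control library. The cause was not tested. Among receptors that did not pass, the sign changed in 1 of 11 alternatives for Clec4n, Clec4d and Clec12a, in 2 for Clec4a3 and in 3 for Clec4a1, and in none for Clec4a2, Clec4e and Clec5a. With 2 libraries per group, changes of about the size of the control difference could not be told from it.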
